A study of Mus musculus with 8 samples.

Results

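Chd7 and Chd8 were mapped by ChIP-seq, the sequencing of immunoprecipitated chromatin, in mouse brain cells of the oligodendrocyte lineage, and the sites examined here are the Chd8 peaks at gene ends that carried Chd7 in both of its libraries. A Chd8 peak was a member when it touched no peak of either mock, overlapped a peak of each Chd7 library by at least 1 bp, and touched the window of 1 kb around either boundary of a RefSeq protein-coding gene (mm10). Of 18415 listed Chd8 peaks, 18350 touched no mock peak, and 927 of these were members. Members were chosen by the peak calls of all 3 ChIP libraries, so the presence of both proteins is given by the rule, and fold values at members are descriptions. Members lay at 1150 of 21887 protein-coding genes (5.25%), or 12.8% (12.1 to 13.5) of the 8966 genes with any Chd8 peak at a boundary. Intervals are at 95% by the exact Clopper-Pearson method, over peaks, genes or promoters, which can neighbour each other, and they cover counting error only.

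The cells were O4-positive cells that were magnetically sorted from wild-type mice at postnatal day 7, taken from cortex and corpus callosum and called OPCs in the sample names. The 8 libraries were 2 Chd7 ChIPs (anti-Chd7, Cell Signaling), 1 Chd8 ChIP (anti-Chd8, Bethyl), 2 mocks with rabbit IgG and 3 inputs. No genotype, treatment or time was varied, Chd8 had 1 library, and no source used here says whether the Chd7 libraries came from separate animals. The general protocol names the O4 antibody for the chromatin step, whereas each sample carries the remodeler antibody given above.

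Chd7 and Chd8 belong to the CHD family of remodelers, enzymes that spend ATP to move or restructure nucleosomes. O4 marks late progenitors and immature oligodendrocytes, the cells that go on to make myelin. Many broadly expressed genes start in CpG-rich promoters, which lie in open chromatin and hold short recognition sequences such as the CCAAT box, bound by the factor NF-Y, the GC box, bound by Sp and Klf factors, and the core site of ETS factors. Some of these promoters serve a pair of genes that start head to head in opposite directions.

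Member promoters are shown first, because the counts that follow concern their letters. Each sequence is the 250 bases before a RefSeq start on the gene's own strand (GRCm38.p6, the build of mm10). Capitals mark the CCAAT box, written CCAAT on the gene's strand and ATTGG when it lies on the opposite strand. Map3k3, Prpf19 and Zfp143 are among the 12 highest-ranked members, and Idi1, Hmgcs1 and Hes5 come from gene lists described below. Pgp and Atp5g1 were chosen after their letters were seen for their many matches. Septin7 is the member with the highest Chd8 fold and has no match in this stretch. Of other members with high Chd8 folds, Gnb2 and Mtf2 also had no match and Zc3h6 had 1, and these are not shown. The stretches shown are examples chosen after values were seen. They hold the box more often than member promoters as a whole (50.7%).
Map3k3 (chr11:106084337-106084586, plus strand): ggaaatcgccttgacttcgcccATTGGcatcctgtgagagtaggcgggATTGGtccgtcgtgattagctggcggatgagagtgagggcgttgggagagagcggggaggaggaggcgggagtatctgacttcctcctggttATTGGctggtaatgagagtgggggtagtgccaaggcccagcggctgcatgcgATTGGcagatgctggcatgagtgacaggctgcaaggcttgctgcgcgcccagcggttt
Prpf19 (chr19:10894981-10895230, plus strand): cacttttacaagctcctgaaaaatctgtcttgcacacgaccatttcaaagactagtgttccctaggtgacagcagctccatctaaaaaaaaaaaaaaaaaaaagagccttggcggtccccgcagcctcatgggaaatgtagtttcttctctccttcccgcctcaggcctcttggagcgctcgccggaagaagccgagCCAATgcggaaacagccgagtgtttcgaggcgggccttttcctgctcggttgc
Zfp143 (chr7:110061452-110061701, plus strand): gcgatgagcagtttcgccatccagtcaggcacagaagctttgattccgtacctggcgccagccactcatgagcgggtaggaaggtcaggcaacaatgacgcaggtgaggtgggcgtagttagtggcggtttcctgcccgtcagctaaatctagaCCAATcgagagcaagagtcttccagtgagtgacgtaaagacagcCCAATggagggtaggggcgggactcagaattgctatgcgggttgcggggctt
Pgp (chr17:24470176-24470425, plus strand): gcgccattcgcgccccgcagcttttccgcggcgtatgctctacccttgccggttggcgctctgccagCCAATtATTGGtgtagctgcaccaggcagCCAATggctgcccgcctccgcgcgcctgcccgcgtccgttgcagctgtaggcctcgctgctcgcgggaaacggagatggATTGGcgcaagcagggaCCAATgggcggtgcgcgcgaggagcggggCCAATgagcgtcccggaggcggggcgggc
Atp5g1 (chr11:96075632-96075881, minus strand): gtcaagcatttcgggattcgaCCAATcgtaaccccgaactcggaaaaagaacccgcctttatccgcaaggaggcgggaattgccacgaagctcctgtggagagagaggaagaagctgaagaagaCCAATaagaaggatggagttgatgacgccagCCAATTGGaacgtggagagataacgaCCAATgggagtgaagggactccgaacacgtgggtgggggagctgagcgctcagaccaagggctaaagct
Idi1 (chr13:8885356-8885605, plus strand): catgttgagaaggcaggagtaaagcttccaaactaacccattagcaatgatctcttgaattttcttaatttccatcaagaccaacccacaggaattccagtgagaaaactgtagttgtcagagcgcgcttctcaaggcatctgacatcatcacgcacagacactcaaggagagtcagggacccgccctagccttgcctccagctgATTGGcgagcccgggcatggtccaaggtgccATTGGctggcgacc
Hmgcs1 (chr13:119690101-119690350, plus strand): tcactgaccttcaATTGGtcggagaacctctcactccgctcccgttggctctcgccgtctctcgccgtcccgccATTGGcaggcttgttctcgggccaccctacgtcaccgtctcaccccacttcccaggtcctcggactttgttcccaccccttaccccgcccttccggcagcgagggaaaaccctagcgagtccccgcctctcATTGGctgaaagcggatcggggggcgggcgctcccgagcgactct
Hes5 (chr4:154960673-154960922, plus strand): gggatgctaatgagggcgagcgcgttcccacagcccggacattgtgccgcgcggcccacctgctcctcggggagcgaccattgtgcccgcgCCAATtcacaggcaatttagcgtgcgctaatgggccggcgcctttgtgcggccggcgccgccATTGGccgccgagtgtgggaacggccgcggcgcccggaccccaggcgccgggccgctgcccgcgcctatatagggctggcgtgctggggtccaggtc
Septin7 (chr9:25251741-25251990, plus strand): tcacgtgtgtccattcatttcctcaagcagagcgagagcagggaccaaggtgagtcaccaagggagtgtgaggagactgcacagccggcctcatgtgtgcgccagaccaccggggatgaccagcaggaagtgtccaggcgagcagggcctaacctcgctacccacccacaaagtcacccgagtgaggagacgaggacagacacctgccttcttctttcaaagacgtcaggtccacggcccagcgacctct
Pgp, which encodes phosphoglycolate phosphatase, had 6 matches in its 300-base reference promoter, the nearest 29 and 58 bases before the start. Atp5g1, a subunit gene of the mitochondrial ATP synthase, had 5, and Map3k3, a kinase of the MAP kinase cascade, had 4, all of them ATTGG. The boxes of Zfp143, a zinc finger transcription factor, began 96 and 52 bases before its start, and that of Prpf19, a ubiquitin ligase of the spliceosome, began 53 bases before. All of these stretches lay within the Chd8 peak of the member.

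The CCAAT box was more frequent in member promoters than in other promoters with Chd8. A reference promoter runs from 250 bases before to 50 bases after a start, and 973 of 21238 touched a member. Of these, 493 (50.7%, 47.5 to 53.9) held CCAAT on either strand, against 43.7% (41.7 to 45.7) of 2377 promoters whose Chd8 peak met 1 Chd7 library and 41.4% (39.7 to 43.1) of 3257 whose Chd8 peak met none. Promoters without Chd8 had it in 35.5% (34.7 to 36.3) and all promoters in 38.2%. Repeated boxes differed by a larger ratio: 3 or more matches were found in 13.1% (11.0 to 15.3) of member promoters, 7.87% (6.82 to 9.02) with 1 Chd7 library, 5.90% (5.11 to 6.76) with none and 2.04% (1.82 to 2.29) without Chd8. In all 4 sets the box was most frequent 75 to 51 bases before the start, where 14.7% of member promoters held one. Farther out, more than 100 bases before the start, 31.0% (28.1 to 34.1) of member promoters held a box, against 22.0% (20.6 to 23.5) of those with Chd8 and no Chd7.

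**Figure D1:**
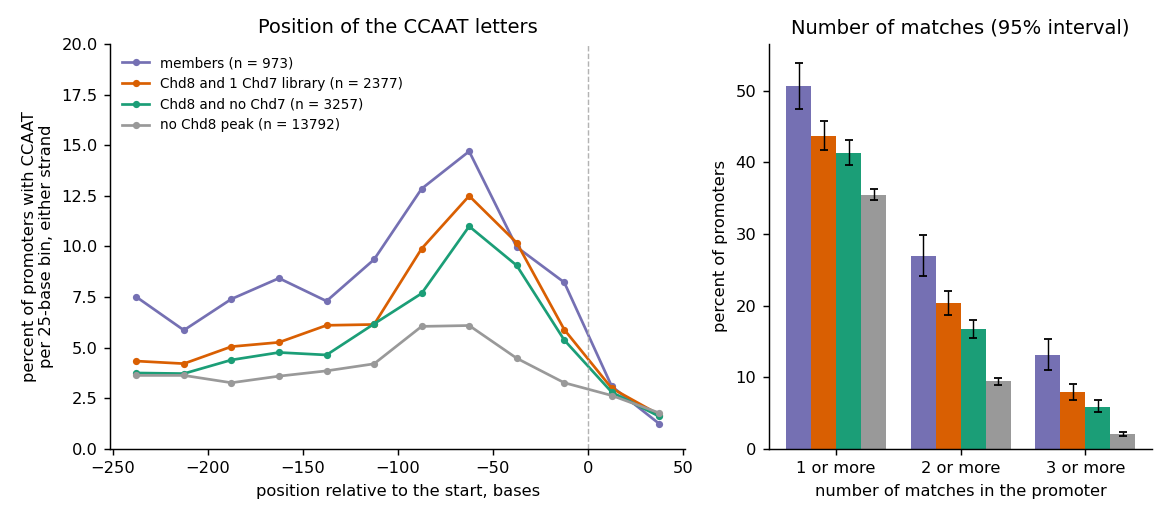
Left, percent of reference promoters with CCAAT on either strand in each 25-base bin, by distance from the start in bases. Right, percent of promoters with 1, 2 or 3 or more matches, with 95% intervals, for members, promoters with Chd8 and 1 Chd7 library, with Chd8 and no Chd7, and without Chd8; members are highest in each class on the right, with 50.7%, 26.9% and 13.1%.

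Base composition moved with these sets. Median GC content was 63.7% in member promoters and 60% in those with Chd8 and no Chd7, and 89.3% (87.2 to 91.2) against 74.4% (72.8 to 75.9) were CpG-rich (GC of at least 50% and an observed over expected CpG ratio of at least 0.6). Within CpG-rich promoters the CCAAT shares were 50.4% (47.0 to 53.8) of members, 38.5% (36.6 to 40.5) with Chd8 and no Chd7 and 27.0% (25.6 to 28.4) without Chd8. The same letters in reverse order, TAACC, were in 17.3% of member promoters, 24.0% of those with Chd8 and no Chd7 and 25.1% of all promoters, the opposite order. Within CpG-rich promoters TAACC was in 16.1% of members, 21.8% with Chd8 and no Chd7, 18.9% of all and 17.4% without Chd8. Members were lowest there too, but the rest of that order did not hold.

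Where no input had a peak, the intervals of members and of other Chd8 promoters overlapped. Among promoters touched by no input, 46.2% (38.2 to 54.3, 73 of 158) of members and 44.1% (41.5 to 46.8) of those with Chd8 and no Chd7 held CCAAT. Among those touched by 2 or 3 inputs, the shares were 53% (48.4 to 57.5) and 37.9% (34.4 to 41.4). When each ChIP list was cleared of peaks touching its matching input, 40.9% of the 88 member promoters left held it. Within members the share did not follow fold: it was 45.2% (39.7 to 50.8) in the highest and 52.8% (47.2 to 58.3) in the lowest of 3 equal groups by Chd8 fold, and 51.7% and 47.2% by the fold of Chd7 replicate 1.

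Other letters gave a mixed picture. The ETS core CCGGAAG was in 20.8% (18.3 to 23.4) of member promoters, below the 25.3% (23.8 to 26.8) of those with Chd8 and no Chd7 and above the 11.6% of all promoters. The GC box GGGCGG was in 74.1% of member promoters, 63.9% of those with Chd8 and no Chd7 and 46.2% of all, but within CpG-rich promoters members (76.9%) and all promoters (76.8%) were alike in share. The core sites of NRF1 (GCATGCGC), YY1 (AAGATGGC) and CREB (TGACGTCA) were in 6.47%, 5.96% and 3.80% of member promoters, beside 7.46%, 6.91% and 4.61% with Chd8 and no Chd7 and 3.52%, 3.05% and 2.24% of all. The rarer ZNF143 core (ACTACAAT), E2F site (TTCCCGCC) and TCTCGCGA element were in 2.06%, 6.06% and 4.11% of member promoters. They were in 1.54%, 4.88% and 2.67% with Chd8 and no Chd7, and in 0.852%, 2.85% and 1.4% of all. The TATA box TATAAA was in 4.93% of member promoters against 12.6% of all, and the Sox core ACAAAG, of interest because Sox factors act in this lineage, in 10.7% against 16.8%. CAGCTG, an E-box of bHLH factors such as Olig2, was in 13.9% against 15.6%, CACGTG in 10.5% against 7.84%, and the CTCF-like AGGGGGC in 19.1% against 12.9%. Within CpG-rich promoters these 5 contrasts shrank or turned: TATAAA was in 4.14% of members and 4.52% of all, ACAAAG in 9.32% and 10.5%, CAGCTG in 13.1% and 13.0%, CACGTG in 10.9% and 11.6%, and AGGGGGC in 19.4% and 19.3%. There the ETS core was in 21.6% of members and 20.1% of all, NRF1 in 6.56% and 6.45%, and CREB in 3.91% and 3.75%. YY1 (6.10% and 4.86%), E2F (6.56% and 5.00%), TCTCGCGA (4.60% and 2.83%) and ZNF143 (2.07% and 0.856%) kept higher shares in members than in all. CpG-rich promoters with Chd8 and no Chd7 had them in 7.35%, 5.41%, 3.34% and 1.16%, so YY1 was less frequent in members than there. For each of these motifs the intervals of members and of promoters with Chd8 and no Chd7 overlapped. Letters were searched on both strands, matches of different motifs may overlap, and a match is not a bound site.

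Members were peaks over gene starts. Strand was known for the genes at 811 members, and 792 of them (97.7%, 96.4 to 98.6) reached a start, 745 at starts alone and 47 at a start and an end. Another 19 touched an end alone, and for 116 no strand was known. The Chd8 midpoint lay a median of 25.5 bp into the gene (quartiles -124 and 186), and those of Chd7 replicates 1 and 2 lay at -25.8 bp and 18.5 bp, over the 770 members whose nearest boundary is a start. Within 250 bp of the start lay 70.5%, 76.0% and 70.3% of these midpoints. Nearness to a start is partly given by the rule, since peaks had to touch a window of 1 kb. For Chd8 the share within 250 bp was 66.4% at gene-end peaks with 1 Chd7 library and 56.7% with none. At widths of 500 to 1000 bp it was 72.5% of members, 69.1% with 1 Chd7 library and 62.2% with none. Starts were nearly as common at Chd8 peaks with 1 Chd7 library (97.0%) and with none (95.9%). Members covered their nearest boundary in 82.4% (79.8 to 84.8) of cases, against 72.9% (71.2 to 74.6) with 1 Chd7 library and 49.8% (48.4 to 51.2) with none, but their median widths differed in the same order (782, 600 and 374 bp). Among peaks of 500 to 1000 bp the shares were 84.8% (81.3 to 87.9), 80.8% (78.5 to 83.0) and 72.2% (69.8 to 74.5).

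**Figure D2:**
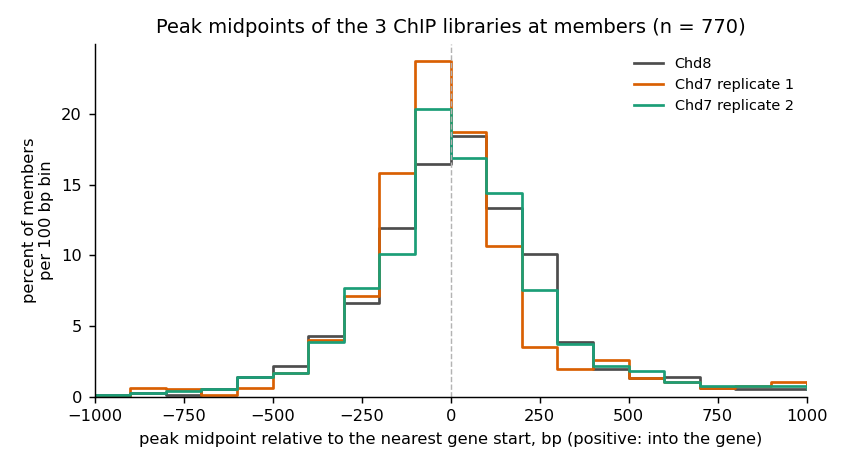
Midpoints of the Chd8 peak and of the Chd7 peak in each replicate at 770 members, in bp from the nearest gene start with positive values into the gene, as percent of members per 100 bp bin. All 3 curves stand around the start, with medians of 25.5, -25.8 and 18.5 bp.

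Some members touched the windows of starts of genes on opposite strands, here called head to head. They were 134 (14.5%, 12.3 to 16.9), against 11.8% (10.6 to 13.1) of gene-end peaks with 1 Chd7 library and 7.71% (6.99 to 8.48) with none. The order of the starts was not checked, so overlapping genes can count as such a pair. At widths of 500 to 1000 bp these shares were 14.4% (11.4 to 17.8), 13.5% (11.6 to 15.5) and 11.9% (10.2 to 13.6), so at like width the intervals overlapped. The starts of a pair lay a median of 176 bp apart. The 3 highest-ranked pairs were Foxred1 with Srpr, the receptor subunit for signal recognition particle, Ccdc59 with Mettl25, and Slx1b, a structure-specific nuclease gene, with Bola2. At the Ccdc59 and Mettl25 pair the folds were 8.21 for Chd8 and 5.43 and 3.75 for Chd7 replicates 1 and 2. Head-to-head members had a median Chd8 fold of 5.92, and members at 1 gene 5.40, while median widths were 896 and 748.5 bp.

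Fold is each peak's enrichment over the local background of the authors' caller, so levels are compared only within a library, as percentiles of its list. At members the median fold was 5.47 for Chd8 (quartiles 4.92 and 6.38), 4.61 for Chd7 replicate 1 and 3.46 for Chd7 replicate 2, at percentiles 83.4, 51.0 and 63.1 of these lists. Members thus stood high in the Chd8 list and near the middle of the Chd7 replicate 1 list. Shared peaks away from gene ends stood nearly as high in the Chd8 list, at a median percentile of 79.8. In the Chd7 replicate 1 list they stood higher than members, at 66.0. Median Chd8 percentiles were 70.9 at gene-end peaks with 1 Chd7 library and 48.4 with none. The fold lay above the list's median in all 3 libraries at 284 members (30.6%), over the 75 percentile in all 3 at 65 and over the 90 percentile in all 3 at 3. Across members the folds of the 3 libraries had Spearman rho between 0.09 and 0.11 for each pair of libraries. These are weak relations over 927 members that share the same libraries. In Chd7 replicate 1, 76 members (8.20%) stood at 4.15, the lowest fold of that list. Peaks tied at this fold share the 5.18 percentile, and no peak of that list stands lower.

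Ranked by the lowest of their 3 percentiles, the leading members were Chmp7, an ESCRT-III gene that acts at the nuclear envelope, Gss, glutathione synthetase, and Map3k3. Chmp7 (chr14:69732172-69733437) had folds of 8.11 for Chd8, 5.75 for Chd7 replicate 1 and 4.32 for Chd7 replicate 2. Gss (chr2:155591963-155592942) had 7.37, 6.15 and 4.03 in the same order, and Map3k3 (chr11:106083981-106084641) had 6.48, 5.67 and 4.13. Input peaks touched all of these, at 3, 2 and 2 of the 3 inputs. Next in rank were Prpf19, Diaph1, an actin-nucleating formin, Lmf1, a lipase maturation factor whose peak lay at the gene's end, and Birc6, an inhibitor of apoptosis. Wwox, Nelfa, a subunit of the negative elongation factor, Zfp143, Scamp5, a secretory carrier membrane protein, and Oga, which removes O-GlcNAc from proteins, completed the 12, and the lowest percentile of any of them was 87.8.

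**Figure D3:**
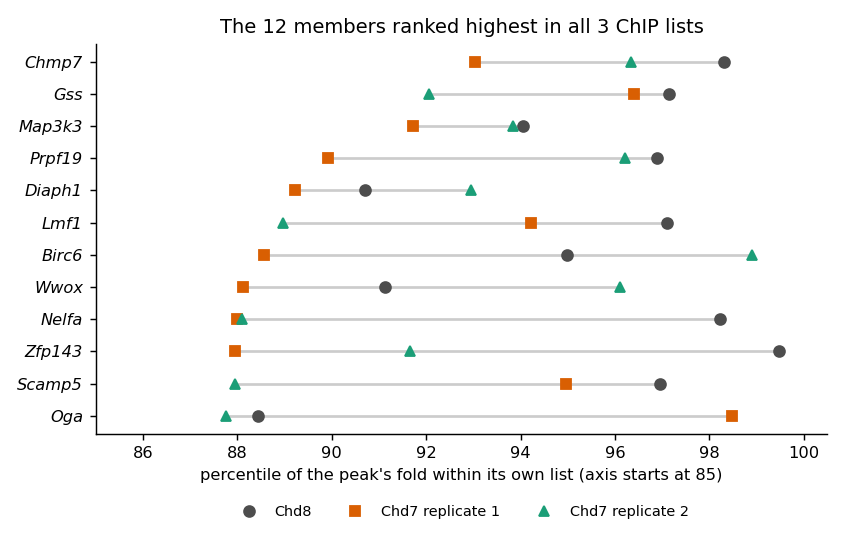
Percentile of the peak's fold within its own list for the 12 members with the highest lowest percentile, with 1 marker for each ChIP library and a grey line over their range. The axis starts at 85, and every marker lies between 87.8 and 99.5.

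The highest Chd8 folds belonged to other members. Septin7, which forms cytoskeletal filaments, had 14.3, Gnb2, of the G protein beta subunits, 14.0, Zc3h6 14.0, Mtf2, a Polycomb partner, 12.5 and Med25, a Mediator subunit, 12.3. Their Chd7 replicate 1 folds ran from 4.41 to 4.90, at percentiles 33.0 to 68.7. The widest member spanned 4389 bp at the starts of H2-DMa and Brd2, a BET-family reader of acetylated histones. The second, of 3104 bp, lay at Ppp1r10 and Mrps18b. Foxo3, a forkhead transcription factor, had a member of 2601 bp, and Csmd3 one of 2599 bp. Another wide member, of 2703 bp, lay at the predicted genes Gm20783 and LOC108167694.

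Geometry differed between the libraries. The Chd7 replicate 1 peak lay wholly inside the Chd8 peak at 75.9% (73.1 to 78.7) of members and the replicate 2 peak at 54.5% (51.2 to 57.7), with median widths of 259, 459 and 782 bp for Chd7 replicate 1, Chd7 replicate 2 and Chd8. At 844 members (91.0%) the Chd7 peaks also overlapped each other. The thinnest overlap that still counted was 2 bp, at a peak of Hes1, a Notch effector, and 7 bp at Msmo1. A miss by 8 bp was found at Eif1. The member farthest from a boundary lay 978 bp from Snx13, and the nearest peak outside the window lay 1003 bp from Angptl6.

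Most members also coincided with input peaks. Inputs 1, 2 and 3 touched 50.7% (47.4 to 54.0), 50.2% (46.9 to 53.4) and 81.7% (79.0 to 84.1) of members, 281 were touched by all 3 and 91 (9.82%, 7.98 to 11.9) by none. Gene-end peaks without Chd7 were touched less often, at 19.2%, 21.0% and 49.7%, and so were shared peaks away from gene ends, at 24.9%, 20.5% and 47.3%. At widths of 500 to 1000 bp members again had the highest share at each input. There input 1 touched 50.4% (45.9 to 54.9) of members, 38.2% (35.5 to 41.0) of gene-end peaks with 1 Chd7 library, 26.2% (24.0 to 28.6) with none and 24.1% (19.2 to 29.6) of distal shared peaks. The part of input in calling a site was not tested. Chd8 folds hardly moved with the number of inputs, with medians of 5.43, 5.52, 5.45 and 5.45 for members touched by 0, 1, 2 and 3.

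**Figure D4:**
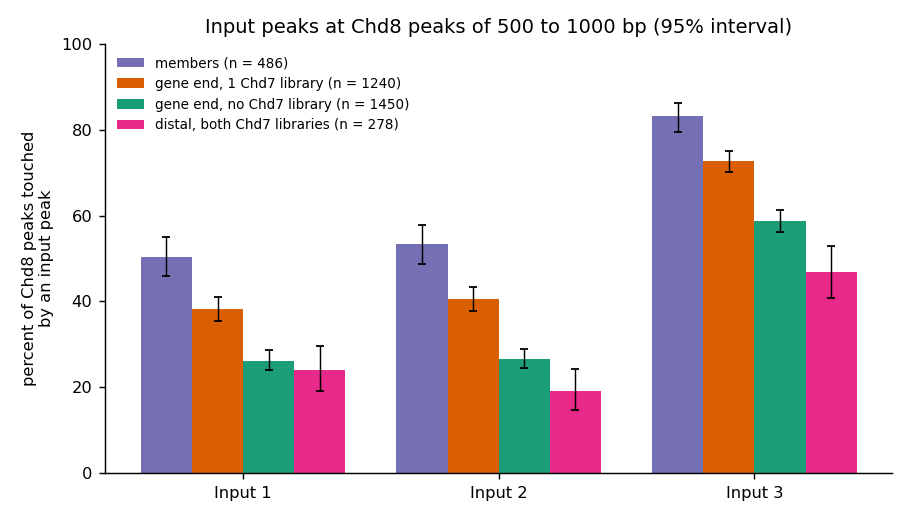
Percent of Chd8 peaks 500 to 1000 bp wide that a peak of each input touched, with 95% intervals, for members, gene-end peaks with 1 or no Chd7 library and distal peaks with both Chd7 libraries. Members are highest at every input, with 50.4%, 53.3% and 83.1%.

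Among the 91 members without any input peak, Gorasp2, a Golgi stacking protein, ranked first, with folds of 9.05, 5.41 and 4.25 for Chd8, Chd7 replicate 1 and Chd7 replicate 2. A peak at Kif22, a kinesin, and Maz, a zinc finger factor, followed with 8.21, 5.25 and 5.11. It touched a start and an end, and its nearest boundary was the end of Kif22. Cdk20, a cyclin-dependent kinase, came next with 5.48, 5.13 and 3.74. Spred1, an inhibitor of Ras signalling, Napg, a vesicle fusion adaptor, Arid2 beside Gm38469, Maml2, a Notch coactivator, Rpusd1 with Chtf18, Casp8ap2 and Them6 made up the first 10.

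Gene groups are counted as genes with a member, beside the 5.25% of all protein-coding genes, and no list was tested. The lists were drawn up with earlier results of these data known. A gene counted also where its peak was shared with, or lay nearer to, another gene. Between 82.1% and 97.9% of the splicing, hnRNP, translation and DEAD-box genes had Chd8, against 41.0% of all genes, so the share among genes with Chd8 (12.8% overall) is given beside each list described. The hnRNP proteins, which package nascent RNA, had 6 of 21 (28.6%, 11.3 to 52.2), and splicing factors had 11 of 48 (22.9%, 12 to 37.3), which is 33.3% and 23.4% of those with Chd8. At Rbm25, a splicing regulator, the folds were 9.12, 5.05 and 4.35 for Chd8 and Chd7 replicates 1 and 2, and at Hnrnpc they were 7.51, 4.74 and 3.29. Genes with symbols of translation initiation and elongation factors had 12 of 71 (16.9%, and 20% of those with Chd8), led by Eif4b (7.14, 5.16 and 4.59), which helps the initiation helicase, and DEAD-box helicases 7 of 56 (12.5%, and 15.2% of those with Chd8). Of the cytosolic ribosomal protein genes 90.4% had Chd8, and 7 of 83 (8.43%, 3.46 to 16.6) had a member. Among them was Rpl37 (8.37, 4.99 and 3.69), whose peak also touched the window of Card6. These are 9.33% of the 75 ribosomal protein genes with Chd8, beside the 12.8% of all genes with Chd8. No interval was computed for shares of list genes with Chd8, so such differences are not read further. Oxidative phosphorylation genes had 6 of 86 (6.98%, and 8.11% of those with Chd8), of which Atp5g1 ranked first (9.52, 5.26 and 3.63). The largest subunit of RNA polymerase II, Polr2a, and the general factor Tbp were among 3 of 54 polymerase and general factor genes (5.56%, and 6.67% of those with Chd8).

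**Figure D5:**
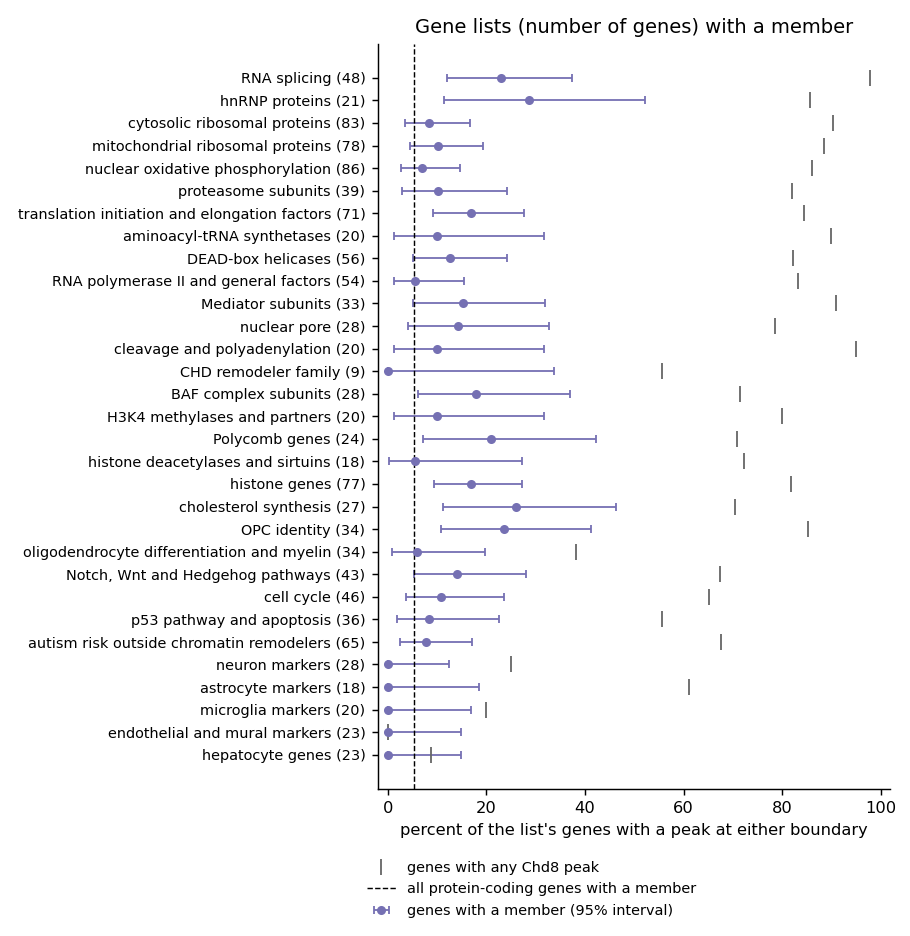
Percent of the genes of each list with a member at either boundary (points, with 95% intervals) and with any Chd8 peak there (grey ticks), with the number of genes in brackets. The dashed line is the 5.25% of all protein-coding genes with a member. The hnRNP proteins reach 28.6%, and all 5 lists of markers of other cell types stand at 0, with intervals that reach past the dashed line.

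Cholesterol synthesis, which supplies the myelin membrane, had a member at 7 of 27 genes (25.9%, 11.1 to 46.3), 36.8% of those with Chd8. Among them were Hmgcs1 at the entry of the pathway, Idi1 and Ggps1 in isoprenoid synthesis, and Cyp51, Msmo1 and Hsd17b7 in the sterol steps. Idi1, the isopentenyl diphosphate isomerase gene, ranked highest, with folds of 5.46, 5.75 and 3.72 for Chd8 and Chd7 replicates 1 and 2. Cyp51 had 8.90, 4.15 and 3.54, so it stood at the 99.0 percentile of the Chd8 list. In Chd7 replicate 1 it stood at the 5.18 percentile, the tie at the lowest fold of that list. Histone genes had 13 of 77 (16.9%, 9.31 to 27.1), 20.6% of those with Chd8. Members covered clusters, so H2ac20, H2ac21 and H2bc21 shared 1 peak, and H2bc3 shared one with H3c3. The CCAAT box was unevenly spread over the lists, counted as genes with a reference promoter at their member, beside 50.7% of all member promoters with 1 or more matches. It was at 6 of 6 cholesterol synthesis genes, 7 of 8 histone genes and 5 of 6 hnRNP genes, but at 2 of 9 translation factor genes, 1 of 4 oxidative phosphorylation genes, 1 of 4 nuclear pore genes, 1 of 4 cell cycle genes and 0 of 4 BAF genes. These lists were picked after their counts were seen, as the highest and lowest with 4 or more genes. Histone genes that shared a peak, such as H2ac15 and H2bc15 with starts 164 bp apart, counted separately. Their promoters can overlap, so the histone count is not of separate sites.

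Chromatin regulators varied. Polycomb genes had 5 of 24 (20.8%, and 29.4% of those with Chd8): Ezh2, the H3K27 methyltransferase, with folds of 5.17, 4.67 and 4.28, Rbbp4, Cbx8, Pcgf2 and Mtf2. BAF complex subunits had 5 of 28 (17.9%, and 25% of those with Chd8), namely Arid2, Smarca2, the ATPase Smarca4, Arid1a and Smarcd1, and H3K4 methylases and partners had Setd1a and Men1 of 20 (10%), 12.5% of those with Chd8. The CHD family itself had 0 of 9, although 5 had a Chd8 peak, and the exact interval allows up to 33.6%. Mediator subunits had 5 of 33 (15.2%, and 16.7% of those with Chd8), led in rank by Med25.

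Precursor identity genes had 8 of 34 (23.5%, 10.7 to 41.2), or 27.6% of those with Chd8. They were Gpr17, a receptor of committed precursors, Hes5, Hes1 and Hes6, factors of the Hes family, Bcan, a proteoglycan core protein, Traf4, Sox11 and Matn4, the last at its end. At Gpr17 (chr18:31949649-31950893) the folds were 5.94 for Chd8, 4.95 for Chd7 replicate 1 and 3.48 for Chd7 replicate 2. Hes5 (chr4:154960237-154961282) had 6.47, 4.73 and 4.18, and Bcan (chr3:88002239-88002974) had 5.10, 5.05 and 3.38. Their median Chd8 fold, 4.83, lay below the 5.47 of all members, while that of splicing factors was 6.49. Peaks of inputs 1, 2 and 3 lay at 6, 9 and 19 of the 34 precursor genes and at 18, 17 and 41 of the 48 splicing genes. With matching-input peaks removed, precursor genes had 3 members (Bcan, Gpr17 and Hes1), splicing and cholesterol genes 0 each, and histone genes 6, where 127 genes remained in all. By the track names inside the files, inputs 2 and 3 would change places in that setting.

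Oligodendrocyte differentiation and myelin genes had 2 of 34 (5.88%, and 15.4% of those with Chd8), namely Sirt2, a deacetylase abundant in myelin, with folds of 5.21, 6.30 and 3.56, and Ugt8a, the galactocerebroside synthase, with 4.23, 4.51 and 3.87. The Sirt2 peak was shared with Nfkbib, which lay nearer to its midpoint, and the starts of the pair were 108 bp apart. Notch, Wnt and Hedgehog genes had 6 of 43 (14.0%, and 20.7% of those with Chd8), 3 of them the Hes genes above and the others Gsk3b, Gas1 and Fzd1. Cell cycle genes had 5 of 46 (16.7% of those with Chd8), with the kinase inhibitors Cdkn1b and Cdkn2c and the cyclin Ccna2, and p53 pathway and apoptosis genes had 3 of 36 (15% of those with Chd8), with Birc6, Birc2 and the pro-apoptotic Bcl2l11. The peak at Bcl2l11 was shared with Acoxl, which lay nearer to its midpoint. Autism risk genes had 5 of 65 (7.69%, and 11.4% of those with Chd8): Setd5, Dyrk1a, Tcf4, Wac and Ankrd11. Several central genes of the lineage were not members: Olig1 and Olig2 had Chd8 peaks that met Chd7 replicate 2 alone, as did Mbp and Chd8, and those of Sox10, Pdgfra and Nkx2-2 met neither Chd7 library. Trp53 met Chd7 replicate 1 alone, and Myrf, Cdkn1a and Chd7 had no Chd8 peak at a boundary. Neuron, astrocyte, microglia, endothelial and mural, and hepatocyte lists had 0 of 28, 18, 20, 23 and 23. The exact intervals allow up to 12.3%, 18.5%, 16.8%, 14.8% and 14.8%, all above the 5.25% of all genes. These counts therefore do not set the 5 lists apart from all genes. In the same order, 25%, 61.1%, 20%, 0% and 8.70% of these genes had Chd8. Odorant receptors had 0 of 1110, which allows up to 0.332% of them, and 0.180% had Chd8.

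Members were spread over every autosome, at 3.29% of genes on chromosome 14 to 8.39% on chromosome 12, but were missing from the X chromosome. None of 966 X-linked genes had a member, which allows up to 0.381%, although 182 had a Chd8 peak, where 13.1% (12.4 to 13.8) of autosomal genes with Chd8 had a member. Chd7 itself was sparse there: replicate 1 had peaks at 4 X-linked genes (0.414%) and replicate 2 at 37 (3.83%), against 11.0% and 17.8% of autosomal genes. The inputs were sparse there as well, with 1.76%, 6.21% and 7.56% of X-linked against 23.1%, 29.8% and 47.5% of autosomal genes. No source used here gives the sex of the mice. On the Y chromosome 2 members lay at 1 predicted gene, Gm52481, and all 3 inputs had peaks at both. Apart from it, Hes1, Ctdnep1 and Tmem129 had 2 members each, and no gene had more.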

How the data were processed

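Broad peak lists of 8 ChIP-seq libraries were used, 1 for each library, in mm10 as the submitters' processing notes state, which name Bowtie2, SAMtools, Picard and MACS without versions or settings. The lists deposited by the authors hold for each peak a score, a fold (the ratio to the caller's local background), a −log10 p and a −log10 q. The score equals about 10 times the −log10 q and was not used further. Each library has its own list, and no source used here names the calling controls. The lists held 5282 and 6292 peaks for Chd7 replicates 1 and 2, 18415 for Chd8, 89 and 98 for the mocks, and 109486, 178478 and 91628 for the inputs. They hold no reads, so depth is unknown, and the number of peaks sets the precision of shares.

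Overlaps were computed in Python 3.11.15 with pandas 2.3.3 and numpy 2.4.6, and checked on simulated intervals and sequences. Gene boundaries came from the RefSeq table of GRCm38.p6, which gives no strand. Strand and 300-base promoters came from RefSeq promoter sequences, which covered 17492 of 21887 protein-coding genes. Promoters were assigned to the set with the most Chd7 libraries where several peaks touched them. The comparison classes were gene-end Chd8 peaks meeting 1 (2650) or no (5061) Chd7 library and 518 distal peaks meeting both. Named were the 12 highest-ranked members, the 5 widest, the 5 with the highest Chd8 fold, the 10 highest-ranked without input, up to 3 of each list by rank, a fixed set of lineage and apoptosis genes, and members at the thresholds; other members named, in lists or with sequences, were chosen after their values were seen. Members and lists were chosen with earlier results of these data known. Titles, not track names, set the replicate numbers. No test was run, because no condition was varied and Chd8 had 1 library. Some genes that the naming rule covers are not reported here.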

Additional observations from a re-analysis of the deposited data

How the results depend on the processing

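The 927 members at 1150 genes changed by over 1.5 times with a higher peak threshold, a reciprocal overlap, removal of input peaks or 1 Chd7 replicate left out. A −log10 q of at least 2 in the ChIP lists left 230 members at 287 genes, and of at least 3 left 15 at 16. A reciprocal overlap of 50% left 139 at 172, and removal of matching-input peaks left 104 at 127. A member list that needed 1 Chd7 library held 1779 peaks at 2158 genes without Chd7 replicate 2 and 2725 at 3242 without Chd7 replicate 1. Overlap of 50% of the shorter peak, windows of 250 bp and 5 kb, mock-touching peaks kept, and X and Y left out gave 859 to 1049 members at 1036 to 1470 genes. Starts of the promoter table alone gave 858 members.

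Any input touched 90.2% of members. This was 93.3% at a −log10 q of at least 3, 93.5% with the reciprocal overlap, 87.7% with the 5 kb window, 13.5% with matching-input peaks removed, 71.4% when the member's midpoint had to lie in the input peak, and 79.9% to 86.6% with a Chd7 replicate left out. The CCAAT share of member promoters, 50.7%, was 41.7% of 12 promoters at a −log10 q of at least 3, 40.9% of 88 with matching-input peaks removed, and 44.7% to 50.1% with a Chd7 replicate left out. Widths, midpoints, CpG-rich promoters and CCAAT under other member rules were alternatives chosen after seeing the data. Counts of genes in lists changed by over 1.5 times in 150 of 352 cases. No paired analysis was possible because no result comes from a test. Lists of peaks limit all of this, since a site just under a caller's threshold counts as absent.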
